A study of Mus musculus with 4 samples.

Results

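The AP-1 family genes described here are the rows of the deposited gene count table named Fos, Fosb, Fosl1, Fosl2, Jun, Junb, Jund, Batf, Batf3 and Jdp2. They are 10 of 23473 gene rows, matched by symbol, and the family was chosen with earlier results of these data known. The counts come from total RNA of 4 libraries. The labels give the cells as MIN6, a line from a mouse insulinoma. Stable TLX overexpression gave 2 libraries and the control, labelled wild type, gave the other 2, all from medium with 25 mM glucose and 15% serum. TLX is an orphan nuclear receptor encoded by Nr2e1, and the question was how its overexpression affects gene expression. The labels do not say which promoter drives TLX, whether the stable cells are a single clone, or whether the control carries an empty vector. Nor do they say that the 2 libraries of a group came from separate cultures, so p-values here measure the spread between these libraries, which may be technical.

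AP-1 is a pair of proteins of the basic leucine zipper (bZIP) class that grip DNA as a dimer. Fos proteins (c-Fos, FosB, Fra-1 and Fra-2) do not pair with themselves and need a Jun partner, whereas Jun proteins can pair with each other or with Fos proteins. Batf, Batf3 and Jdp2 are smaller relatives that lack the Fos transactivation domain and pair with Jun proteins. Growth factors, stress and MAP kinases raise AP-1 activity within minutes, and in insulin-secreting lines glucose together with cAMP signals is known to induce Fos and Junb.

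AP-1 genes are themselves controlled by AP-1 and CREB-type sites close to their starts, so the 250 bases before the start of 3 members are shown. Jun had the largest fitted fall among the members, Junb was among the most abundant, and Fos is the classical immediate early gene. The sequences are RefSeq windows of GRCm38.p6, 5′ to 3′ on the strand of the gene, at chr4:95052223-95052472 (minus strand), chr8:84978749-84978998 (minus strand) and chr12:85473640-85473889 (plus strand). Capitals mark motif matches found on either strand.

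Jun: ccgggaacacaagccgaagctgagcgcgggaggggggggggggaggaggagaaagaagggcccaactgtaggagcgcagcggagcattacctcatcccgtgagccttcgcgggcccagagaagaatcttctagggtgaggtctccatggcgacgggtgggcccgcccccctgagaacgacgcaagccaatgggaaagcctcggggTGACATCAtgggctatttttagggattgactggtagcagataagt
Junb: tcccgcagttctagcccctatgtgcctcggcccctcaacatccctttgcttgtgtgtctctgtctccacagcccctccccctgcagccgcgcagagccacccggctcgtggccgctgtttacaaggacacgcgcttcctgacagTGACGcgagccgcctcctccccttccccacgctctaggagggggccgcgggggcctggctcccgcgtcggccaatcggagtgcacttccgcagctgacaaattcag
Fos: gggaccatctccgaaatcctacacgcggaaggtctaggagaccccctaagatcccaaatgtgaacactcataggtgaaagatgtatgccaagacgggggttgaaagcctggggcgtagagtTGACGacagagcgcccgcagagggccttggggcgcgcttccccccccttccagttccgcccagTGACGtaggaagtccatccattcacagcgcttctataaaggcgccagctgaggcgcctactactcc

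The Jun window holds TGACATCA, the Jun variant of the AP-1 site, at bases 45 to 38 before the start. The Fos window holds the CRE core TGACG at bases 129 to 125 and at bases 66 to 62, and the Junb window holds it at bases 106 to 102. Among 32817 promoter windows of the same length, 2.93% hold TGACATCA and 17.7% hold TGACG. These shares are not matched for base composition. The Jun, Junb and Fos windows were 61.2%, 66.4% and 58.4% G or C, against a median of 52.4% over all windows. Those of Jund and Batf were below that median, at 47.6% and 46.4%. Windows were found for 9 of the 10 members, with Fosl1 unmatched. TGACG also occurs in the windows of Fosb and Batf and in 1 of 3 windows of Jdp2. The Jund window belongs to a start upstream of the one in GENCODE M21. The consensus AP-1 site TGANTCA (6.75% of all windows), the full CRE TGACGTCA (1.55%, which contains TGACG) and the CArG box (1.47%) had no match in the windows of these 9. Only the 250 bases before each start were searched, so sites further upstream would be missed. A match is a description of letters and not of binding. TGACG was added to the search after the sequences were seen.

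The TLX libraries held 8490145 and 8136185 counts in gene rows and the control libraries 8435976 and 9788646. Nr2e1 was counted 338 and 281 times with TLX overexpression, against 8 and 10 times in control, a log2 fold change of 5.22 (SE 0.20). Beta cell markers were almost absent: 9 of 13 had 0 counts in every library, and the list summed to 20.8 and 21.7 CPM (counts scaled to the TMM-adjusted library size) in TLX cells and 20.6 and 18.3 CPM in control cells. Iapp, Chga, Neurod1 and Slc2a2 are among those at 0. Of 10 mesenchymal markers 6 had enough counts to be tested. The list summed to 8584 and 8247 CPM in TLX cells, against 7963 and 7560 CPM in control cells. Col1a2 was its highest gene, averaging 3859 CPM in TLX cells and 3187 CPM in control cells. Lum was at 0, and Dcn, Thy1 and Acta2 averaged at most 0.147 CPM over the 4 libraries. Within that list Fn1 was lower in TLX (log2 fold change -0.76), Sparc and Col1a2 were higher (0.87 and 0.28), and the other 3 did not pass. The call of Col1a2 (edgeR adjusted p = 0.0434) did not hold without any 1 of the 4 libraries (0.0852 to 0.235; 0.00355 to 0.235 across alternatives). Of 6 leukocyte markers 2 were tested, Cd68 and Cd14, and the list summed to 86.6 and 88.1 CPM in TLX cells and 103 and 104 CPM in control cells; Cd68 was lower in TLX (log2 fold change -0.53), Cd14 did not pass, and Ptprc averaged 0.063 CPM in TLX cells and 0.110 CPM in control cells. The part of these differences in the AP-1 results was not tested. Rn45s, the ribosomal RNA row, took 12.2% and 16.7% of gene row counts in TLX libraries and 14.2% and 14.3% in control libraries.

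AP-1 transcripts were lower with TLX overexpression. Jun, Junb, Jund, Fosl2, Fosl1 and Jdp2 fell, Fosb and Fos did not pass the test, and Batf and Batf3 had 0 counts in all 4 libraries. Thus 6 of 8 tested members were lower and 0 were higher in edgeR's quasi-likelihood test (adjusted p under 0.05), against 9.04% of 11024 tested genes called lower, 7.79% called higher and 16.8% called in either direction. No member had a positive fold change, so 0 were higher in edgeR even at an unadjusted p of 0.05. DESeq2 called 5 lower and 0 higher, against 4.39% and 3.22% of all tested genes, and limma-voom 6 lower and 0 higher, against 8.9% and 7.71%. The median log2 fold change was -0.48 over the 8 tested members and 0.00057 over all tested genes. In each of the 8 both TLX libraries lay below both control libraries, as in 28.6% of all tested genes; groups did not overlap, in either direction, in 57.1% of them. In bulk RNA such as this, fewer cells that express a gene and less RNA per cell cannot be told apart. None of the 6 called members fell to less than 0.536 of its control level.

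**Figure D1:**
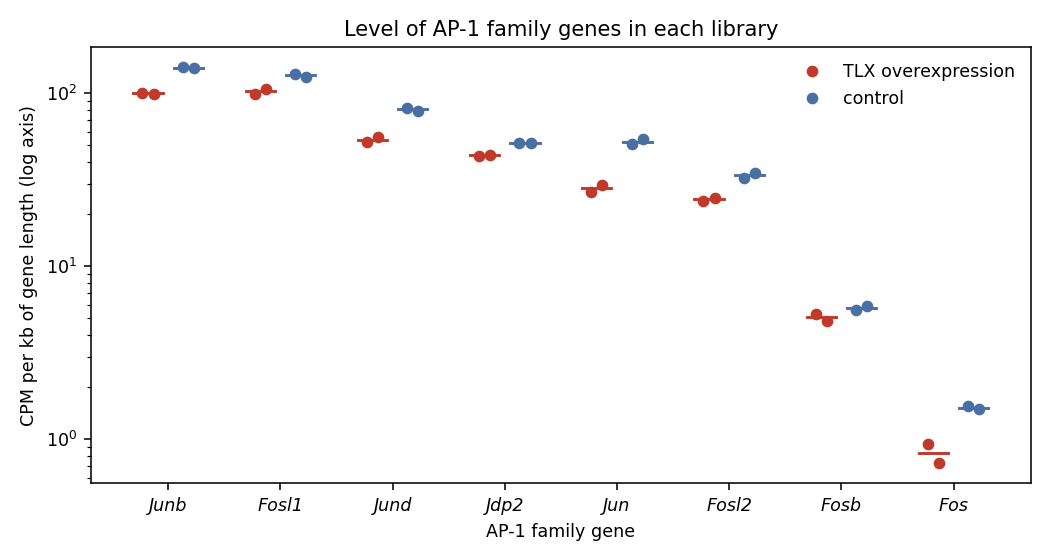
Level of the 8 detected AP-1 family genes in each library, as CPM per kilobase of the deposited gene length on a log axis; points are libraries (TLX overexpression left, control right) and lines are means of 2. In every gene both TLX points lie below both control points, from Fosl1 at 103 CPM per kb on average in TLX and 127 in control and Junb at 99.8 in TLX and 141 in control down to Fos at 0.831 in TLX and 1.52 in control.

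Jun proteins are the partners that Fos proteins need for DNA binding, and all 3 of their genes fell. Jun, the gene of c-Jun and the main nuclear target of the JNK kinases, stood at 85.7 and 94.0 CPM in TLX cells, against 162 and 173 CPM in control cells. Its level was 89.8 ± 5.9 CPM in TLX and 167 ± 8 CPM in control (SD, n = 2). The log2 fold change was -0.90 (SE 0.08, edgeR adjusted p = 4.53e-08). TLX cells thus held 0.536 of the control level, and 1.67% of all tested genes had a lower fold change.

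Jund, whose product is the steady, constitutive Jun protein linked to slow growth, was at 150.0 and 160 CPM in TLX cells and 237 and 229 CPM in control cells. Both TLX values lay well below both control values, with a log2 fold change of -0.59 (SE 0.08, edgeR adjusted p = 7.92e-06). Junb, which can restrain c-Jun as well as activate its own targets, was at 184 and 183 CPM in TLX cells and 261 and 257 CPM in control cells. The libraries of a group differed by less than 4 CPM here, and the log2 fold change was -0.49 (SE 0.07, edgeR adjusted p = 5.27e-05). An antisense gene, Gm11175, covers 52.6% of the exonic bases of Jund in GENCODE M21, and the antisense gene Junos covers 7.28% of Jun. Neither has a row of its own, and whether reads were counted by strand is not given in the sources used here. Prdx2, which overlaps 7.52% of Junb, was at 203 ± 5 CPM in TLX cells and 198 ± 27 CPM in control cells (edgeR adjusted p = 0.804).

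Among the Fos proteins the abundant transcripts were Fosl1 and Fosl2, not Fos. Fosl2, the gene of Fra-2, was at 139.9 and 146 CPM in TLX cells and 190 and 203 CPM in control cells, a log2 fold change of -0.46 (SE 0.08, edgeR adjusted p = 0.000175). Fosl1, the gene of Fra-1, a Fos protein often high in transformed and migratory cells, was at 170.0 and 180 CPM in TLX cells and 221 and 212 CPM in control cells. Its log2 fold change was -0.31 (SE 0.08, edgeR adjusted p = 0.00663), the smallest of the Fos and Jun genes called. Without TLX replicate 1 or TLX replicate 2 its adjusted p was 0.192 and 0.0622 (0.000334 to 0.192 across alternatives; such ranges leave out the replicate block). Ccdc85b, on the opposite strand, covers 57.2% of the exonic bases of Fosl1 in GENCODE M21. Reads of the shared part cannot be told apart if strand was not used. The row of Ccdc85b had 1323 and 1321 counts in TLX libraries and 1514 and 1754 in control libraries. Its log2 fold change was -0.16 (edgeR adjusted p = 0.157).

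Fos, the gene of c-Fos, was counted only 17 and 12 times in TLX libraries and 27 and 31 times in control libraries. That is 1.97 and 1.51 CPM with TLX and 3.23 and 3.12 CPM in control, groups that do not overlap. The log2 fold change of -0.85 was nearly that of Jun, but with so few reads its SE was 0.31 and it did not pass (edgeR adjusted p = 0.0640; 0.0531 to 0.317 across alternatives). Fosb, whose product resembles c-Fos, was at 20.01 and 18.3 CPM in TLX cells and 21.1 and 22.2 CPM in control cells. The gap between the groups was smaller than the spread within the TLX libraries, and the gene did not pass (log2 fold change -0.17, SE 0.12, edgeR adjusted p = 0.364).

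Jdp2, a repressor that competes for AP-1 sites, was at 81.8 and 82.8 CPM in TLX cells and 97.1 and 97.7 CPM in control cells. It had the smallest fall of the 6 called members, with a log2 fold change of -0.24 (SE 0.08, edgeR adjusted p = 0.0422). This call did not hold without TLX replicate 1 or 2 (adjusted p = 0.295 and 0.242) or in DESeq2 (adjusted p = 0.189; 0.0270 to 0.295 across alternatives). Batf and Batf3, known for their roles in lymphocytes and dendritic cells, had 0 counts throughout, which allows up to 0.347 and 0.379 CPM in the TLX libraries and 0.359 and 0.302 CPM in the control libraries (3 counts, counting error only).

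**Figure D2:**
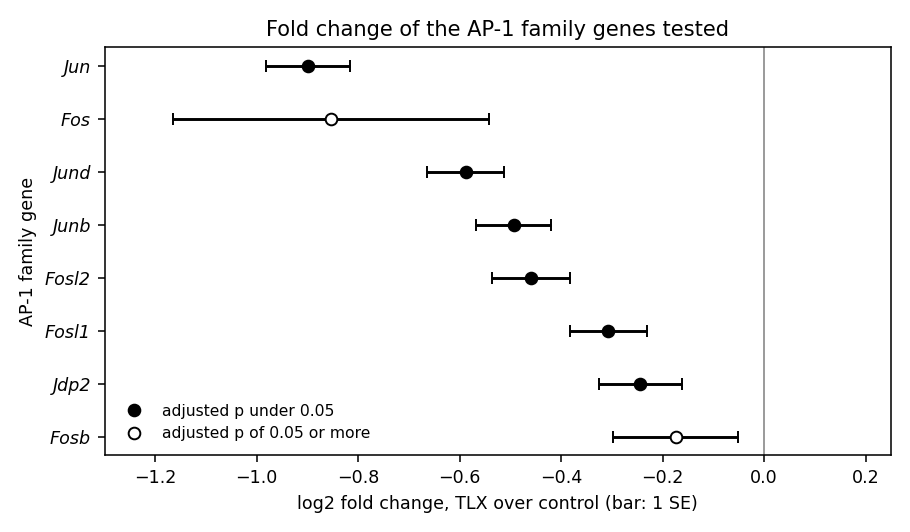
Log2 fold change of the 8 tested AP-1 family genes, TLX over control, with bars of 1 SE; filled points passed the edgeR test. All lie below 0, from Jun at -0.90 to Fosb at -0.17, and the wide bar belongs to Fos with its 12 to 31 counts per library.

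Levels of different genes can be compared only per length. On the scale of CPM per kilobase of the deposited length, Fosl1 and Junb led in TLX cells at 103 ± 4 and 99.8 ± 0.5 and overlapped each other. In control cells Junb led at 141 ± 1 and Fosl1 followed at 127 ± 4 without overlap (SD, n = 2 each). Jund came next in both groups, at 53.8 ± 2.4 CPM per kb in TLX cells and 80.9 ± 2.0 in control cells. The deposited length of Jund is 2878 bases, against 1668 exonic bases in GENCODE M21. Those of Junb and Fosl1 are 1840 and 1705 bases, against 2301 and 2033 exonic bases. The order of these genes and the shares below thus depend on the lengths used. Levels on the GENCODE lengths were not computed. In TLX cells the order went on with Jdp2 at 43.7 ± 0.4, Jun at 28.2 ± 1.8 and Fosl2 at 24.4 ± 0.7 CPM per kb, with no overlap between neighbours. In control cells Jun at 52.5 ± 2.5 and Jdp2 at 51.8 ± 0.2 CPM per kb overlapped, and Fosl2 followed at 33.5 ± 1.6. Fosb and Fos closed both orders, at 5.07 ± 0.32 and 0.831 ± 0.153 CPM per kb in TLX cells and 5.73 ± 0.20 and 1.52 ± 0.04 in control cells.

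The make-up of the family's transcript pool differed slightly between the groups. Summed over the family, the level was 352 and 364 CPM per kb in TLX cells, against 495 and 492 in control cells. The 3 Jun genes made up 50.8% and 50.6% of this sum in TLX libraries and 55.4% and 55.6% in control libraries. The 4 Fos genes made up 36.8% and 37.3% in TLX libraries and 34.1% and 33.8% in control libraries. Jun alone had 7.63% and 8.09% of the pool in TLX cells and 10.2% and 11.04% in control cells. Fosl1 had 28.3% and 29.0% in TLX cells and 26.2% and 25.3% in control cells. The level and share of Fosl1, and ratios to it, may include reads of the overlapping Ccdc85b if strand was not used. Per length there were 0.270 and 0.279 Jun transcripts for each of Fosl1 in TLX libraries, against 0.391 and 0.437 in control libraries. The corresponding ratio of Jun to Junb was 0.268 and 0.297 in TLX libraries and 0.358 and 0.389 in control libraries. Groups did not overlap in these values, which were not tested. The levels of 57.1% of all tested genes did not overlap either. Shares add up to a fixed total, so a lower share of Jun goes with higher shares elsewhere. The ratio of Jdp2 to Fosl1 did overlap, at 0.436 and 0.417 in TLX libraries and 0.398 and 0.418 in control libraries. The share of Junb overlapped between the groups, 28.42% and 27.28% in TLX libraries and 28.58% and 28.38% in control libraries. That of Fosl2 overlapped too, 6.77% and 6.83% in TLX libraries and 6.53% and 7.04% in control libraries.

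**Figure D3:**
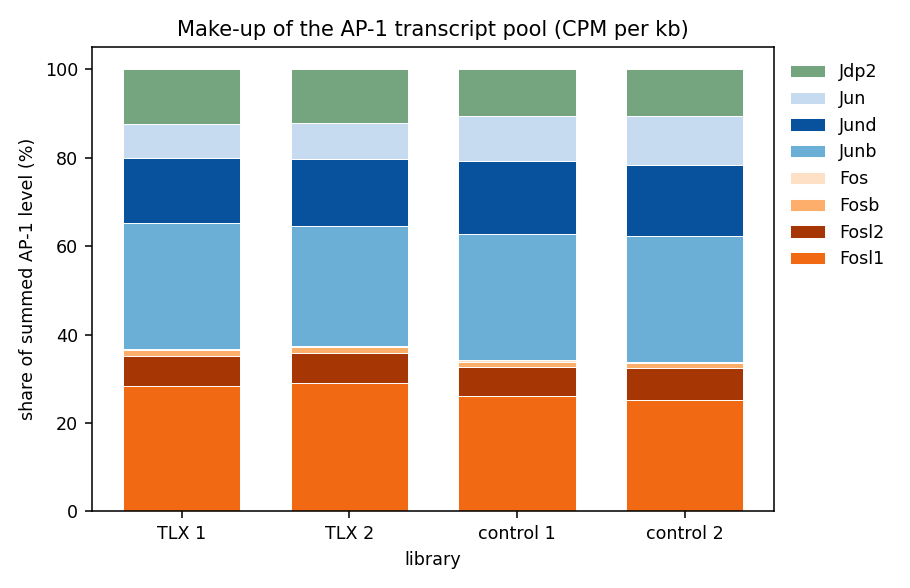
Share of each AP-1 family gene in the summed length-scaled level (CPM per kb) in each of the 4 libraries, with Fos genes in orange, Jun genes in blue and Jdp2 in green. The blue part is 50.6% to 50.8% in the TLX libraries and 55.4% to 55.6% in the control libraries.

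Over the 4 libraries, the genes whose centred log2 CPM profile lay nearest to that of Jun, among tested genes averaging at least 20 CPM, were Phlda1 (Euclidean distance 0.019), Txnip (0.029), F3 (0.053) and Egr1 (0.073). Each of these 4 fell with TLX, by 0.90, 0.88, 0.90 and 0.87 on the log2 scale in that order (edgeR adjusted p from 1.27e-05 to 2.31e-08). Phlda1 was at 132 ± 8 CPM in TLX cells and 245 ± 9 CPM in control cells. Nearest to Junb were Fam195b (0.029), Aldh18a1 (0.032), Sft2d2 (0.035) and Lmbr1l (0.041), which also fell. Nearest to Fos were Casp4 (0.059), Mt1 (0.145), Slc25a25 (0.155) and Ier3 (0.181). With 4 libraries in 2 groups, such likeness mostly reflects the size of the group difference. The genes were picked by likeness to Fos, Jun or Junb in the same libraries. Their falls and small p-values largely follow from that selection.

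Related bZIP genes showed a mixed picture. Of 15 listed, 10 were tested, 3 were lower, 1 was higher and 6 did not pass, with a median log2 fold change of -0.15; the called share was 40% against 16.8% of all tested genes. Creb5, a member of the ATF2 group that pairs with Jun, was at 9.14 and 10.5 CPM in TLX cells and 30.1 and 27.1 CPM in control cells (log2 fold change -1.54, edgeR adjusted p = 2.96e-08). This was the largest fall of the list. Maff, a small Maf protein, fell to 256 ± 15 CPM in TLX cells, against 368 ± 23 CPM in control cells (edgeR adjusted p = 4.93e-05), and Nfe2l1, the gene of NRF1, to 434 ± 8 CPM, against 587 ± 2 CPM in control cells (SD, n = 2; edgeR adjusted p = 0.00026). Bach1, a partner of small Maf proteins and a repressor, was higher at 30.9 ± 2.8 CPM in TLX cells than in control cells at 24.3 ± 0.5 CPM (edgeR adjusted p = 0.0393), but not in DESeq2 (0.257), nor without TLX replicate 2 (0.349) or control replicate 2 (0.0801), and adjusted p ranged from 0.0321 to 0.349 across alternatives. Mafk did not pass, at 188 ± 6 CPM in TLX cells and 220 ± 14 CPM in control cells (edgeR adjusted p = 0.0538; 0.00335 to 0.419 across alternatives), though it passed with no filter, with the filter of 10 CPM, without Rn45s and Lars2, without control replicate 2 and with the replicate block. Atf3, a stress-induced partner of Jun, had 1 and 1 counts in TLX libraries and 0 and 1 in control libraries.

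Factors that act on AP-1 promoters were not called. Of 16 serum response, CREB, MEF2 and STAT3 genes 15 were tested and 0 passed in edgeR, in DESeq2 or in limma-voom, which called 16.8%, 7.61% and 16.6% of all tested genes, with 1 at an unadjusted p under 0.05, Elk3 (119 ± 8 CPM in TLX cells and 102 ± 5 CPM in control cells, edgeR adjusted p = 0.0763). Elk3 is a ternary complex factor that joins SRF on the CArG box. It passed without control replicate 2 (adjusted p = 0.0180; 0.0180 to 0.559 across alternatives). Stat3 stood at 134 ± 5 CPM in TLX cells and 130 ± 2 CPM in control cells, and the SRF coactivator gene Mkl1 at 90.5 ± 0.6 CPM in TLX cells and 101 ± 6 CPM in control cells (edgeR adjusted p = 0.698 and 0.234).

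Of 25 MAP kinases, their activators and their effectors, 22 were tested, 2 were higher, 1 was lower and 19 did not pass, a called share of 13.6% against 16.8% of all tested genes. Map2k3, an activator of p38 kinases, was higher at 119 ± 2 CPM in TLX cells against 88.7 ± 0.3 CPM in control cells (edgeR adjusted p = 0.000653). Mapk14, p38 alpha itself, was higher at 96.4 ± 1.4 CPM in TLX cells against 75.8 ± 6.0 CPM in control cells (edgeR adjusted p = 0.00705; 0.0522 and 0.0794 without TLX replicates 1 and 2, and 0.000161 to 0.0794 across alternatives). Rps6ka2, an RSK kinase downstream of ERK, fell to 46.4 ± 0.6 CPM in TLX cells, against 77.2 ± 5.3 CPM in control cells (edgeR adjusted p = 4.07e-06). Mapk3, the gene of ERK1, was at 278 ± 16 CPM in TLX cells and 272 ± 14 CPM in control cells and did not pass. The JNK genes Mapk8 and Mapk9, named after their values were seen, did not pass either, at 9.61 ± 1.46 and 19.98 ± 2.08 CPM in TLX cells and 9.04 ± 2.45 and 20.1 ± 0.4 CPM in control cells (edgeR adjusted p = 0.844 and 0.978). Without control replicate 2, and with the replicate number as a block, 5 genes of this list were called instead of 3.

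Of 14 regulators of AP-1 protein 13 were tested and 2 passed, a share of 15.4% against 16.8% of all tested genes. Trib1, a pseudokinase that guides the COP1 ubiquitin ligase, fell to 16.5 ± 2.1 CPM in TLX cells, against 27.3 ± 0.7 CPM in control cells (edgeR adjusted p = 0.000226). Ep300, the acetyltransferase p300 that AP-1 recruits, was higher at 128 ± 5 CPM in TLX cells against 105 ± 3 CPM in control cells (edgeR adjusted p = 0.0150), but not in DESeq2 (0.0660) nor without TLX replicate 1 or 2 (0.0838 and 0.242; 0.00380 to 0.242 across alternatives). Naca, a coactivator of c-Jun, was at 472 ± 9 CPM in TLX cells and 484 ± 32 CPM in control cells.

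Genes with a textbook AP-1 site or response were mostly lower with TLX. Of 32 listed, 25 were tested, 15 were lower, 2 were higher and 8 did not pass, and the median log2 fold change was -0.35, against 9.04% called lower and a median of 0.00057 over all tested genes. The list was drawn up with results of these data known, so its direction is not independent evidence. Among secreted signals, Ptgs2, the inducible cyclooxygenase, was at 182 and 204 CPM in TLX cells and 486 and 546 CPM in control cells (log2 fold change -1.42, SE 0.08, edgeR adjusted p = 5.11e-11). Ccl2, a monocyte chemokine, was at 43.0 and 45.0 CPM in TLX cells and 80.5 and 98.0 CPM in control cells (log2 fold change -1.02). Lif and Hbegf, a cytokine of the IL-6 family and an EGF receptor ligand, had log2 fold changes of -0.96 and -0.91. Il6 was counted 1 and 0 times in TLX libraries and 14 and 19 times in control libraries. The control level was 29.9 times that of TLX, with a 95% exact counting interval of 5.01 to 1217. That interval leaves out the spread between libraries. Il6 passed the count filter only through the control libraries, where it is high. Its place among the 15 lower genes is no support for the list, nor is that of any other gene that passed in this way. The 15 lower and 25 tested genes were not cleared of such genes. Il11 also fell at a low level, with a mean of 3.60 CPM in TLX cells and 6.27 CPM in control cells. The call of Il11 did not hold in DESeq2 (adjusted p = 0.222) nor without TLX replicate 2 or control replicate 2 (0.155 and 0.0759; 0.00499 to 0.222 across alternatives).

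A pair of genes in that list went the other way. Hmox1, heme oxygenase, was higher at 504 and 461 CPM in TLX cells against 343 and 340 CPM in control cells (log2 fold change 0.50, SE 0.08, edgeR adjusted p = 6.9e-05). Dnmt1, the maintenance DNA methyltransferase, was higher at 201 ± 1 CPM in TLX cells against 158 ± 3 CPM in control cells (edgeR adjusted p = 0.00245; 0.0618 and 0.0533 without TLX replicates 1 and 2, and 0.000318 to 0.0618 across alternatives). The cell surface genes Cd44 and Plaur, the urokinase receptor, had log2 fold changes of -0.45 and -0.41, and the matrix protein gene Spp1 of -0.34 (adjusted p = 0.0992 and 0.0665 without TLX replicates 1 and 2; 0.000182 to 0.0992 across alternatives). Also called were the growth factor gene Areg (-1.64), the metallothionein genes Mt2 (-1.21) and Mt1 (-0.73), the autophagy receptor gene Sqstm1 (-0.35) and the galectin gene Lgals3 (-0.29). Sqstm1 did not pass without TLX replicate 2 (adjusted p = 0.111; 6.58e-05 to 0.111 across alternatives), nor did Lgals3 without TLX replicate 1 or 2 (0.0662 and 0.304; 0.00237 to 0.304 across alternatives). The proteinases most cited as AP-1 targets, Mmp3, Mmp9, Mmp10, Mmp13 and Plau, had too few counts to be tested, with Mmp3 highest at 0.783 CPM in TLX cells and 0.844 CPM in control cells. Vim and Ccnd1 were at 1811 ± 69 and 1040 ± 14 CPM in TLX cells and 1621 ± 27 and 890 ± 4 CPM in control cells. Neither passed in the main edgeR test (adjusted p = 0.210 and 0.0557). Ccnd1 passed in DESeq2 (0.0356), in limma-voom (0.0337) and in edgeR with no filter (0.0340) or without Rn45s and Lars2 (0.0446). Its adjusted p ranged from 0.0337 to 0.344 across alternatives. With the replicate block in edgeR both Vim and Ccnd1 passed (adjusted p = 0.0280 and 0.00100).

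**Figure D4:**
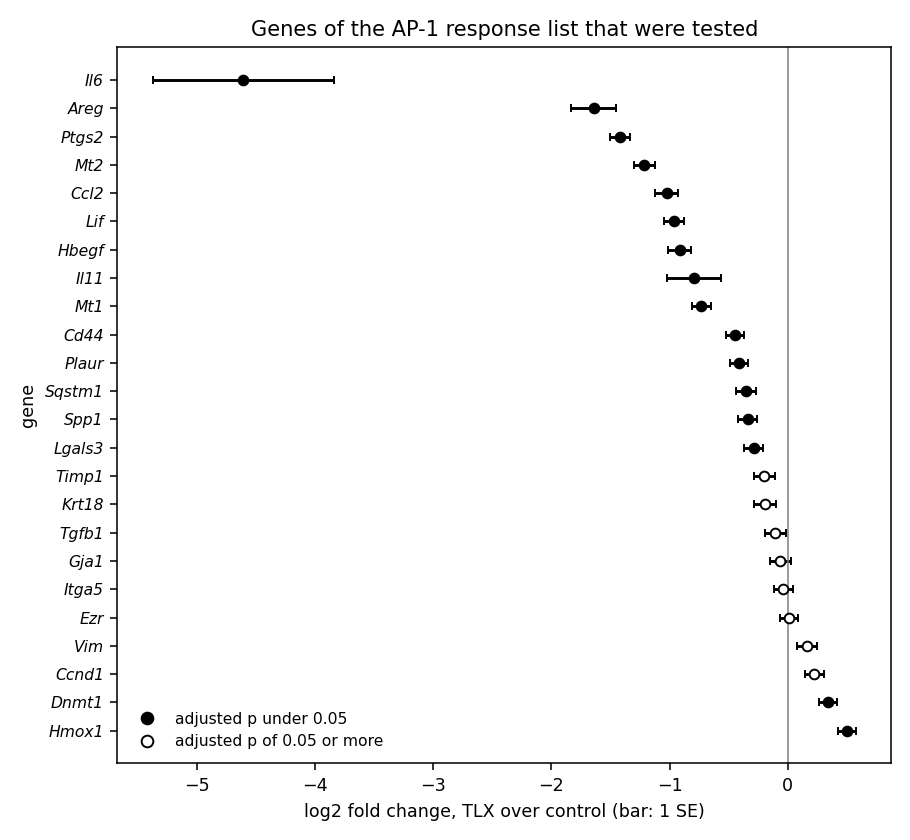
Log2 fold change, TLX over control, of 24 of the 25 tested genes of the AP-1 response list, with bars of 1 SE; filled points passed the edgeR test. The 14 genes at the top are lower in TLX and the 2 at the bottom, Dnmt1 and Hmox1, are higher; the fitted value of Il6 rests on 1 count in the TLX libraries.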

How the data were processed

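RNA-seq of total RNA was analysed for 2 TLX and 2 control libraries. The authors deposited raw read counts per feature, with no normalization, beside a feature length in bases, per the file headers. TopHat2 2.0.13 and the mouse build mm9 are named in the submitters' processing notes; no source used here names the counting program, the annotation or the use of strand. Clone rows (33353 of 56826, 23.3% to 25.1% of counts) were left out, since some repeat counts of gene rows; none lay within 2% of a member in all 4 libraries. Pairs of libraries in a group differed by more than sampling noise (median chi-square 0.923 for TLX and 1.13 for control, against 0.455).

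The main test was edgeR's quasi-likelihood F-test for TLX over control, on TMM-scaled gene counts that passed filterByExpr at a minimum count of 10. It has 2 residual degrees of freedom per gene, and its estimate of spread also draws on the other tested genes. P-values were adjusted by Benjamini-Hochberg over all 11024 tested genes and called at 0.05. The SE is the log2 fold change divided by the square root of F. Levels are CPM on TMM-scaled libraries of tested genes. Tools were edgeR 4.0.16, DESeq2 1.42.0 and limma 3.58.1 in R 4.3.3. Alternatives were limma-voom, the Wald test and the size factors of DESeq2, total counts, an average of at least 10 CPM, no filter, all feature rows, a replicate block, leaving out Rn45s and Lars2, and leaving out each library. Members, lists and tests were chosen with earlier results of these data known. Genes named are the members, Nr2e1, the called genes of each list with the most abundant uncalled ones, the 4 genes nearest to Fos, Jun and Junb, and marker genes. Some further genes of the lists, such as Mapk8, Mapk9, Batf2 and Rfwd2, and genes that overlap members were named besides. Promoter windows are RefSeq's for GRCm38.p6, a build other than mm9. Overlapping genes come from GENCODE M21. A single gene of the AP-1 response list enters its counts but is not reported here.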

Additional observations from a re-analysis of the deposited data

How the results depend on the processing

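Jun, Junb, Jund and Fosl2 kept their direction and call under every alternative run, with log2 fold changes of -0.97 to -0.83, -0.51 to -0.48, -0.63 to -0.54 and -0.51 to -0.41. Fosb passed under none. Of the members, 4 were called lower without TLX replicate 1 or 2, and 6 without either control replicate. Fosl1 without 1 library ranged from -0.35 to -0.27 and Jdp2 from -0.25 to -0.24. Jdp2 was -0.25 with total counts and with all feature rows (adjusted p = 0.0527 and 0.0580) and -0.24 in DESeq2. The cause of these lost calls was not tested. DESeq2 gave no adjusted p for Fos, and the filter of 10 CPM left it out.

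Genes called numbered 1856, against 839 in DESeq2, 1054 and 1022 without TLX replicates 1 and 2, and up to 2026 without 1 control library. Genes called lower numbered 997, against 484 in DESeq2, 584 and 632 without TLX replicates 1 and 2, and up to 1041 without 1 control library. Without 1 library the called genes ranged from 0 to 1 among promoter factors, from 2 to 5 among MAP kinases and from 1 (without TLX replicate 1 or 2) to 2 among regulators of AP-1 protein, where DESeq2 called 1. Of the AP-1 response genes 17 were called, against 14 and 12 without TLX replicates 1 and 2, 15 in DESeq2 (12 lower, 3 higher), 13 with the filter of 10 CPM and 12 to 20 over all alternatives. Of the bZIP relatives 4 were called, against 3 to 6.

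The replicate numbers of the titles are shared by the groups, but no label says that they mark a pairing, and the differences between libraries 1 and 2 correlated across genes by 0.108. With that replicate block 2982 genes were called, 1 of the promoter factors (Elk3) and 5 of the MAP kinases, and Fos passed (log2 fold change -0.86, adjusted p = 0.0398), so that 7 members were called lower.

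Some uncalled genes turned sign when 1 library was left out: Mapk8 (-0.16 to 0.40), Mapk9 (-0.11 to 0.098), Mapk3 (-0.027 to 0.089) and Naca (-0.10 to 0.033). A tally over the alternatives covered Nr2e1, Mapk8, Mapk9 and the called and most abundant uncalled genes of the bZIP, promoter factor, MAP kinase, protein regulator and AP-1 response lists. Marker genes, such as Col1a2, and the genes nearest to Fos, Jun and Junb entered it only where those lists hold them. Batf2, Rfwd2 and the genes that overlap members were left out. Apart from the changes of sign, 424 values in this tally kept direction and call, 19 lost the call and 13 gained it.

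Without division by length, the shares of the AP-1 sum in TLX and control cells were 20.6% and 18.1% for Fosl1, 16.8% and 16.4% for Fosl2, 2.26% and 1.81% for Fosb, 21.6% and 21.7% for Junb, 18.2% and 19.5% for Jund, 10.6% and 14.0% for Jun and 9.69% and 8.16% for Jdp2; that of Fos in control cells was 0.266%. Depth limits Fos, with at most 31 counts per library. P-values rest on 2 residual degrees of freedom per gene and on a spread estimated in part across all tested genes.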

Other observations

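Fos, Jdp2 and Batf follow each other on mouse chromosome 12, with no other protein-coding gene starting between them in GENCODE M21; Jdp2 starts 125 kb and Batf 213 kb after the start of Fos. Their levels differed widely in these cells. Jdp2 had 707 and 656 counts in TLX libraries and 811 and 970 in control libraries. Fos had 17 and 12 counts in TLX libraries and 27 and 31 in control libraries, and Batf had 0 in every library. Batf2, a relative outside the 10 members, had 35 and 20 counts in TLX libraries and 29 and 31 in control libraries and did not pass (log2 fold change 0.01, edgeR adjusted p = 0.981).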
